A study of Homo sapiens with 12 samples.

Results

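The genes described here act in the removal of peroxides and superoxide and in the control of lipid peroxidation. They are 5 glutathione peroxidases (GPX1, GPX2, GPX3, GPX4 and GPX8), catalase (CAT), the superoxide dismutases SOD1 and SOD2, the ferroptosis suppressor AIFM2 and the acyl-CoA synthetase ACSL4. The 10 genes were chosen by function and by gene symbol, and 9 of the 10 were matched by identifier among the 57815 genes of each library. The identifier that the annotation used here pairs with SOD2 is not used in the files, which may hold that gene under another identifier that no table used here names, so SOD2 was not analysed here. RNA came from A549, H2023 and H460 cells given a control siRNA or an NRF2 siRNA and harvested 48 h later, and each of the 6 groups had 2 of the 12 libraries. A549 and H2023 are lung adenocarcinoma lines and H460 is a large cell carcinoma line. All of them, controls included, carry a KEAP1 mutation, so that NRF2 is already active before any treatment, and each line is a single established line. The control libraries of a line, numbered 0 and 1, were biological duplicates. Of the NRF2 siRNA libraries, number 0 received siRNA 28 and number 1 received siRNA 30, so the spread within an NRF2 siRNA group includes any difference between the siRNAs. Libraries of A549 were made after rRNA removal and those of H2023 and H460 after polyA selection, and A549 was grown in high-glucose and the other lines in low-glucose medium, so levels in A549 are not compared with those of the other lines.

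Superoxide dismutases turn superoxide into hydrogen peroxide, which catalase breaks down in peroxisomes and glutathione peroxidases reduce at the cost of glutathione. GPX4 differs from its relatives in reducing peroxides of membrane lipids, and its loss sets off ferroptosis, an iron-dependent death by lipid peroxidation. AIFM2, also named FSP1, guards membranes on a separate route by reducing coenzyme Q, and ACSL4 works against both by loading polyunsaturated fatty acids into the lipids that are oxidised. NRF2, encoded by NFE2L2, is a transcription factor that is normally degraded through KEAP1 and that drives many antioxidant genes from antioxidant response elements.

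Relative depth lay between 92.6% and 107% of the first control library of the same line, and 12732 to 13909 genes per library were at 1 FPKM or above. FPKM is a fragment number scaled to transcript length and to library size, so levels of different genes can be set side by side. The targeted gene NFE2L2 fell in each line, its log2 changes being -2.24 ± 0.22, -3.86 ± 0.16 and -3.60 ± 0.34 for A549, H2023 and H460 (SE, 2 libraries per group, adjusted p = 0.0178, 0.00529 and 0.0111 in limma). NQO1, a classical NRF2 target, fell by 2.38, 3.15 and 1.95 on the same log2 scale in A549, H2023 and H460 (adjusted p = 0.0095, 0.00713 and 0.0215). Transcripts of the mitochondrial genome took 8.56% and 13.1% of the summed FPKM in the H460 control libraries and 20.8% and 26.0% in the H460 NRF2 siRNA libraries. Leaving these transcripts out of the scaling took the H460 median over all genes from -0.0083 to 0.189 on the log2 scale, and every H460 change given here would shift upwards with it. Under that scaling 580 genes were lower and 1426 higher in H460 in place of 922 and 957, and on average over the lines 1120 were lower and 2385 higher in place of 1674 and 1763.

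The labelled origin was checked on marker genes. All 5 epithelial markers were at 1 FPKM or above in every A549 and H2023 library, whereas in H460 only 3 of the 5 were, EPCAM and CDH1 being at or below 1.19 FPKM in each H460 library. All 5 lung lineage markers, among them NKX2-1 and the surfactant genes SFTPB, SFTPC and SFTPA1, were under 1 FPKM in each group except NAPSA in H2023 with NRF2 siRNA, so the lung origin of these lines was not visible in them. The immune, endothelial and fibroblast markers PTPRC, CD3E, VWF and DCN were under 1 FPKM in all 12 libraries. Of the other markers of that list with a value, the macrophage marker CD68 was at 14.04 to 57.7 FPKM over the 12 libraries, and the collagen genes COL1A1 (H2023 and H460) and COL3A1 (H460) were above 1 FPKM in every library of the lines named. The summed FPKM of the epithelial markers differed between conditions in H2023 and H460, whereas its ranges overlapped in A549. It lay at 2129 and 2547 in H2023 controls against 4624 to 5273 with NRF2 siRNA, at 1142 and 1336 in H460 controls against 1743 to 2606, and at 6182 to 9114 in A549 controls against 7875 to 9195. KRT8 and KRT18, which make up most of that sum, rose on average over the lines, with log2 changes of 0.78 ± 0.16 and 0.60 ± 0.12 (SE, adjusted p = 0.00638 and 0.00556). CDH1 rose in H2023 by 2.497 on the log2 scale (adjusted p = 0.0280), and COL1A1 rose in H460 by 1.23 (adjusted p = 0.0329). The part of these shifts in the results on the peroxide defence genes was not tested.

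AIFM2 and GPX2, which both fell, are shown with the sequence before their starts because an antioxidant response element core was found there. The core TGACNNNGC was searched on both strands of RefSeq promoter windows of 300 bases, from 250 before to 50 after the gene start (GRCh38.p14). It was found in 2 of the 9 listed genes that had a window, which include SOD2 but not SOD1, and in 16.1% of all 27305 genes with a window, so its presence is common. It was not found in the window of NQO1, the classical NRF2 target, so the lack of a match in a window says nothing of dependence on NRF2. In both genes the core lies on the opposite strand and reads GCNNNGTCA as printed. The AIFM2 match starts 22 bases before the gene start, and the GPX2 match starts 122 bases before it. The AIFM2 match also holds TGANTCA, the core of the AP-1 motif, which was found in 1 of the 9 genes and in 7.71% of all windows. A match is a description of letters, and NRF2 binding was not analysed here. The 250 bases before the start are printed 5′ to 3′ along the gene's strand, the minus strand in both, with the matched core in capitals. AIFM2 is taken from chr10:70132826-70133075 and GPX2 from chr14:64942746-64942995.
AIFM2: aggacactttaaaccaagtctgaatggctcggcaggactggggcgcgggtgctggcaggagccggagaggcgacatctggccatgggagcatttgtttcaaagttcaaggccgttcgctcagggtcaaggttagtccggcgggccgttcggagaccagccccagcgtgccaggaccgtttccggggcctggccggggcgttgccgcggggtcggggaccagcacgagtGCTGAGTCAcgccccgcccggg
GPX2: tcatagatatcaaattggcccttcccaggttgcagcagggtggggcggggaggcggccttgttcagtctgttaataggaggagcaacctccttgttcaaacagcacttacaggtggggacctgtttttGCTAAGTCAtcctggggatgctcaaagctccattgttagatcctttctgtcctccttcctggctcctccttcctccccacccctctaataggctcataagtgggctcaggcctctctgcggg

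In each line the NRF2 siRNA libraries were compared with the control libraries, to see which of these genes depend on NRF2. Changes are log2 fold changes of FPKM + 1, tested with limma across all genes of the line, and a gene passed at a Benjamini-Hochberg adjusted p under 0.05. Of the 9 genes tested in A549, 1 was lower and 0 higher past the threshold, against 0.554% and 0.122% of all genes. Of the 8 genes tested in H2023, 1 was lower and 0 higher, against 0.583% and 0.327% of all genes. Of the 7 genes tested in H460, 1 was lower and 1 higher, against 6.86% and 7.12% of all genes. At an unadjusted p under 0.05, 4 of these genes were lower and 1 higher in A549, 4 lower and 2 higher in H2023, and 2 lower and 2 higher in H460, against 13.3%, 16.9% and 33.7% of all genes in either direction. The genes that passed were GPX3 in A549, GPX2 in H2023, and AIFM2 (lower) and GPX1 (higher) in H460. Fits were repeated with 1 library left out. Where that library is 1 of the 2 NRF2 siRNA libraries, the other stands alone and is assumed to vary like the controls. The controls varied less, with a median replicate SD of log2 values of 0.132 against 0.218 in H2023 and 0.158 against 0.248 in H460, and the calls over all genes rose from 128 to 1532 in H2023 without siRNA 28. Calls gained in such fits therefore give no support to a change in a single line. Where a control is left out, the other control is assumed to vary like the NRF2 siRNA libraries. Calls lost there say little of a single gene. A looser count asks only whether the libraries overlap. In A549, 5 of 9 genes had both NRF2 siRNA libraries below both controls and 3 had both above, against 20.5% and 25.2% of all genes. In H2023 these numbers were 5 and 3 of 8 genes, against 22.0% and 27.0%. In H460 they were 3 and 2 of 7, against 31.6% and 31.1%. SOD1 and AIFM2 were below the controls without overlap in all 3 lines, and GPX1 was above them in all 3 lines. How many of all genes did so in every line was not counted, so these 3 genes are given as a description.

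Effects were then averaged over the lines in a fit of all 12 libraries, which used the 6 genes at 1 FPKM or above in at least 2 libraries of every line. AIFM2 and SOD1 were lower on average and GPX1 was higher, so 2 of 6 genes were lower and 1 of 6 higher, against 14.5% and 15.2% of all 11571 genes. GPX4, GPX8 and ACSL4 did not pass the threshold. That fit takes 1 spread for all groups, whereas the median replicate SD of log2 values ranged from 0.110 in A549 controls to 0.248 in H460 with NRF2 siRNA. The effect of GPX4 differed between the lines, which made 1 of 6 genes against 2.51% of all genes. As RNA came from whole cultures, fewer expressing cells and less RNA per cell cannot be told apart in any of these changes.

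**Figure D1:**
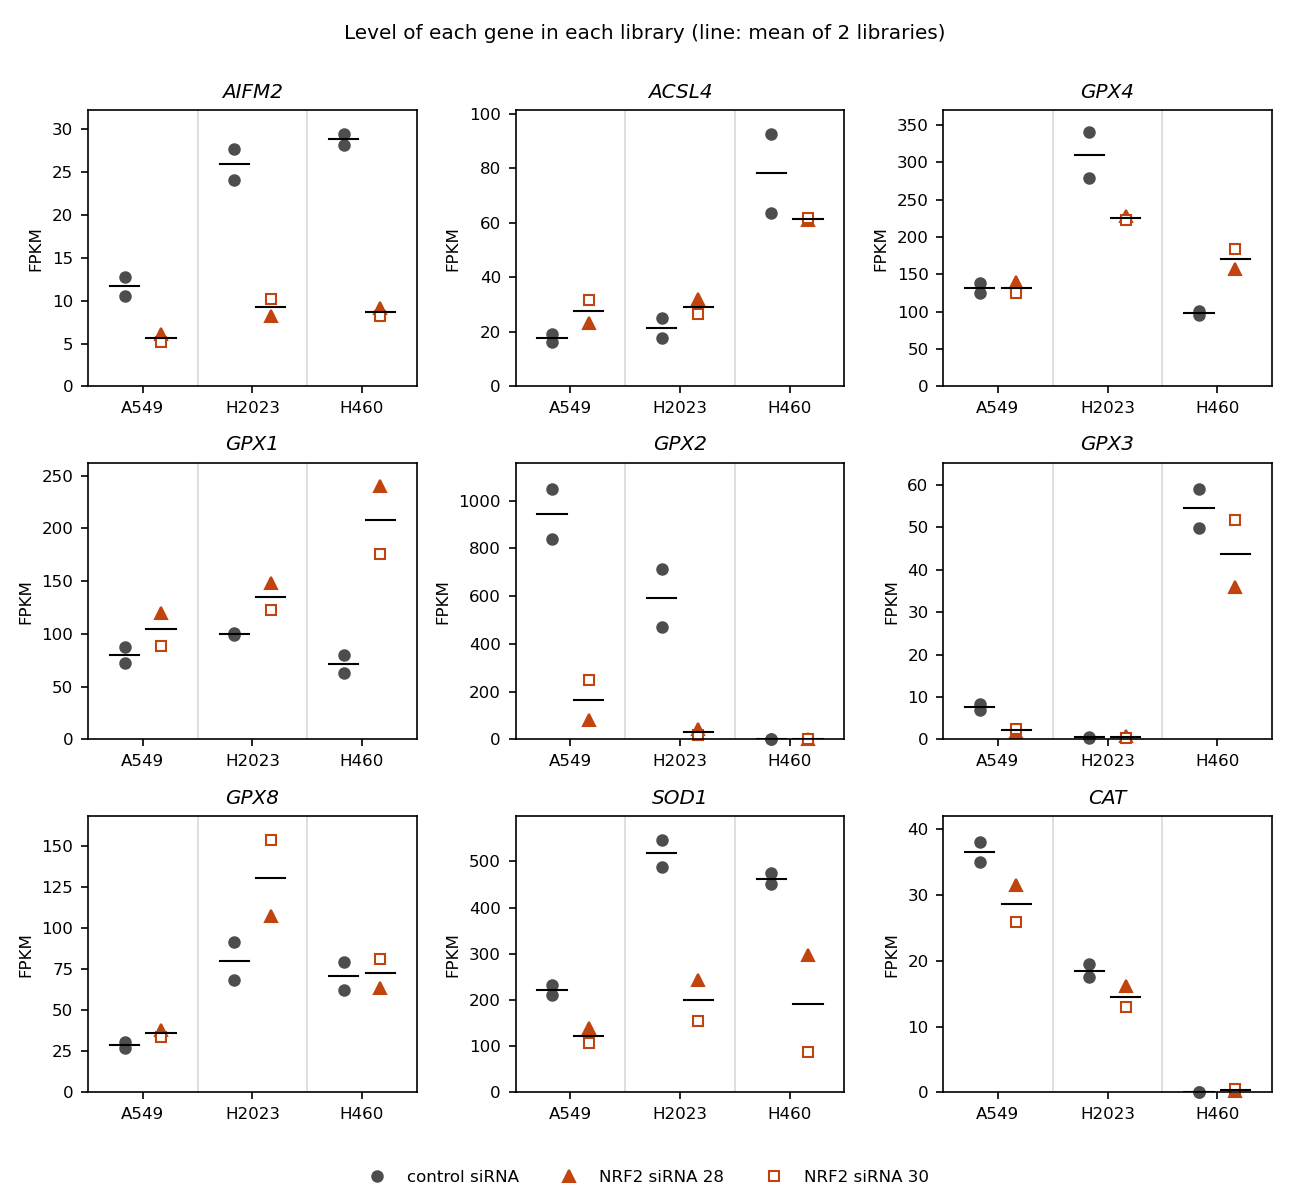
FPKM of the 9 matched genes (vertical axes, linear from 0, each panel with its own scale) in the 4 libraries of A549, H2023 and H460. Grey circles are the 2 control siRNA libraries, filled triangles siRNA 28, open squares siRNA 30, and black lines the means of 2 libraries; AIFM2 and SOD1 lie below their controls in all 3 lines, and GPX2 is near 0 in H460.

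AIFM2 fell with NRF2 siRNA on average over the lines and lay below its controls in each of them. AIFM2 (ENSG00000042286.10, chromosome 10, 71857979 to 71892690, minus strand, GRCh37) was at 12.7 and 10.6 FPKM in the A549 controls, 6.07 FPKM with siRNA 28 and 5.21 FPKM with siRNA 30. In H2023 it was at 27.7 and 24.1 FPKM in the controls, 8.21 FPKM with siRNA 28 and 10.2 FPKM with siRNA 30. In H460 it was at 29.5 and 28.2 FPKM in the controls, 9.12 FPKM with siRNA 28 and 8.16 FPKM with siRNA 30. Thus the NRF2 siRNA libraries were well apart from the controls and close to each other in each line, and the mean FPKM was 48.4%, 35.6% and 29.97% of the control mean in A549, H2023 and H460. Averaged over the lines, AIFM2 changed by -1.32 ± 0.10 on the log2 scale (SE, adjusted p = 3.23e-05 in limma), which passed under all 19 alternative settings. Within single lines the change was -0.93 ± 0.17 in A549 (adjusted p = 0.122), -1.40 ± 0.20 in H2023 (adjusted p = 0.0601) and -1.63 ± 0.23 in H460 (adjusted p = 0.0178). A difference between the lines was not found (adjusted p = 0.245). In the fit of all 12 libraries, which takes 1 spread for all lines, AIFM2 also passed in A549 and H2023 (adjusted p = 0.0411 and 0.00231). In H2023 the adjusted p was 0.00487 and 0.00265 without siRNA 28 and without siRNA 30, where 1 NRF2 siRNA library is assumed to vary like the controls, and 0.491 and 0.380 without control library 0 and without control library 1. The H460 call was lost with no filter on low values (adjusted p = 0.0963), where 0 of all 30675 genes passed. That call was also lost without either control library, where 1 control stood alone. With 1 H460 library left out, the log2 change of AIFM2 lay from -1.70 to -1.56. Among all genes of the average fit, KEAP1, DGKG and GMEB2 followed AIFM2 most closely over the 12 libraries. Their Pearson r were 0.989, 0.986 and 0.985 on log2 values centred on each line. These libraries share the difference between siRNA groups, so the correlations describe that difference too.

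GPX4, the lipid hydroperoxidase, had no common direction over the lines. GPX4 (ENSG00000167468.12, chromosome 19, 1103981 to 1106790, plus strand, GRCh37) was at 138 and 125 FPKM in the A549 controls, 140 FPKM with siRNA 28 and 125 FPKM with siRNA 30. Its H2023 levels were 340 and 279 FPKM in the controls, 228 FPKM with siRNA 28 and 223 FPKM with siRNA 30. Its H460 levels were 102 and 96.0 FPKM in the controls, 158 FPKM with siRNA 28 and 184 FPKM with siRNA 30. The groups overlapped in A549, the NRF2 siRNA libraries lay below the controls in H2023, and they lay above them in H460. On the log2 scale GPX4 changed by 0.0055 ± 0.14 (adjusted p = 0.991), -0.45 ± 0.17 (adjusted p = 0.281) and 0.78 ± 0.21 (adjusted p = 0.0589) for A549, H2023 and H460, none past the threshold. The F test of the difference between the lines gave an adjusted p of 0.0440 in limma. That call rests on little, since it held under 7 of 19 alternative settings, with adjusted p from 0.0257 to 0.145. It was lost in 10 of the 12 fits that left out 1 library, all but those without siRNA 28 in H2023 or siRNA 28 in H460. Rescaling without mitochondrial transcripts gave a log2 fold change of 0.999 in H460 (adjusted p = 0.0359), and GPX4 also passed there in the fit of all 12 libraries (adjusted p = 0.00438). With siRNA 30, the higher library, alone against the H460 controls and assumed to vary like them, the adjusted p was 0.0237, and with siRNA 28 alone it was 0.0671. The average over the lines was 0.11, with a 95% confidence interval from -0.09 to 0.32.

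ACSL4, which supplies the oxidisable lipids, lay on opposite sides of its controls between lines, but its change with NRF2 siRNA passed no test. ACSL4 (ENSG00000068366.15, chromosome X, 108867473 to 108976632, minus strand, GRCh37) was at 19.2 and 16.4 FPKM in the A549 controls, 23.3 FPKM with siRNA 28 and 31.8 FPKM with siRNA 30. For H2023 the levels were 25.1 and 17.7 FPKM in the controls, 31.9 FPKM with siRNA 28 and 26.6 FPKM with siRNA 30. For H460 the levels were 92.7 and 63.5 FPKM in the controls, 60.9 FPKM with siRNA 28 and 61.9 FPKM with siRNA 30. Thus both NRF2 siRNA libraries lay above the controls in A549 and H2023 and below them in H460, where 1 control was close to the NRF2 siRNA libraries. For A549, H2023 and H460 the log2 changes were 0.59 ± 0.19, 0.45 ± 0.23 and -0.32 ± 0.25 (SE, adjusted p = 0.298, 0.392 and 0.423), and the difference between the lines had an adjusted p of 0.226. With 1 library left out, the change lay from 0.38 to 0.81 in A549 and from 0.21 to 0.69 in H2023. In H460 it lay from -0.59 to -0.05.

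**Figure D2:**
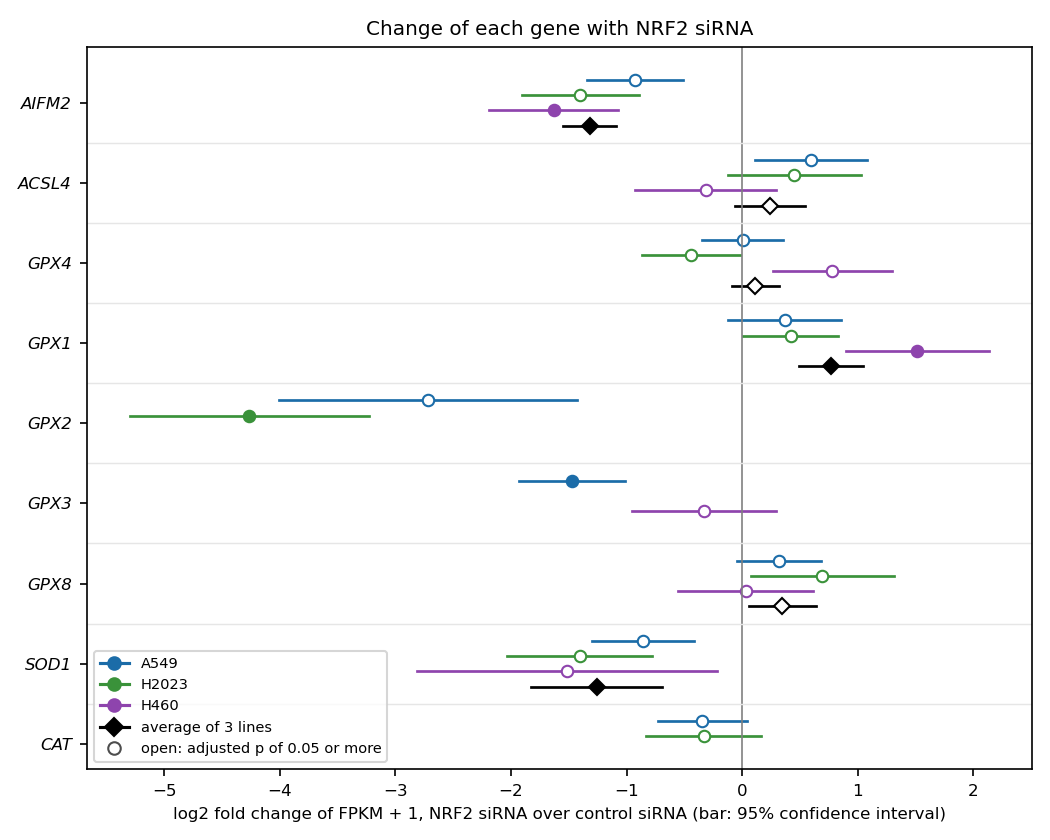
Log2 fold change of FPKM + 1 with NRF2 siRNA (horizontal axis) for the 9 matched genes in A549, H2023, H460 and on average over the lines, with bars for 95% confidence intervals from limma. Filled symbols have an adjusted p under 0.05, and GPX2, GPX3 and CAT have no average because they are under the filter in 1 line.

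GPX2, the epithelial glutathione peroxidase best known from the gut, had the highest mean FPKM of these genes in A549 and H2023 controls and was nearly absent from H460. GPX2 (ENSG00000176153.10, chromosome 14, 65405870 to 65409464, minus strand, GRCh37) was at 1050 and 839 FPKM in the A549 controls, 80.1 FPKM with siRNA 28 and 250 FPKM with siRNA 30. In H2023 it was at 712 and 469 FPKM in the controls, 43.5 FPKM with siRNA 28 and 19.4 FPKM with siRNA 30. Both siRNAs brought GPX2 far below the controls in these lines, to a mean of 17.5% of the control mean in A549 and 5.32% in H2023. In H460 it was at 0.344 and 0.323 FPKM in the controls, 2.69 FPKM with siRNA 28 and 0.119 FPKM with siRNA 30, and it was not tested. The fall in H2023 was -4.26 ± 0.41 on the log2 scale (SE, adjusted p = 0.0280). The change in A549 was larger than that of any other of these genes in that line but did not pass the threshold, at -2.72 ± 0.52 (adjusted p = 0.133), the siRNAs differing there by a ratio of 0.32 (siRNA 28 over siRNA 30). Leaving out siRNA 28 or siRNA 30 in A549 gave adjusted p of 0.0128 and 0.00214, in fits where the remaining library is assumed to vary like the controls. The H2023 call was lost with no filter on low values (adjusted p = 0.220), where 0 of all 32031 genes passed. That call was also lost without either control library, where 1 control stood alone. With 1 H2023 library left out, the log2 change of GPX2 lay from -4.83 to -3.70.

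GPX3, a glutathione peroxidase that is secreted into plasma, fell in A549. GPX3 (ENSG00000211445.7, chromosome 5, 150400152 to 150408549, plus strand, GRCh37) was at 8.36 and 7.04 FPKM in the A549 controls, 1.83 FPKM with siRNA 28 and 2.44 FPKM with siRNA 30. Its H460 levels were 50.0 and 59.1 FPKM in the controls, 35.9 FPKM with siRNA 28 and 51.6 FPKM with siRNA 30. In H2023 it lay between 0.271 and 0.744 FPKM and was not tested. Both NRF2 siRNA libraries were clearly below the controls in A549, and the groups overlapped in H460. On the log2 scale GPX3 changed by -1.48 ± 0.18 in A549 (SE, adjusted p = 0.0441) and by -0.33 ± 0.26 in H460 (adjusted p = 0.417). The A549 call held in 8 of 12 alternative settings. Among others, it was lost with no filter on low values (adjusted p = 0.254), where 0 of all 35808 genes passed. That call was also lost without either control library, where 1 control stood alone. With 1 A549 library left out, the log2 change of GPX3 lay from -1.61 to -1.34. The effects in A549 and H460 were not tested against each other, because GPX3 was under the filter in H2023.

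GPX1, the ubiquitous cytosolic glutathione peroxidase and a selenoprotein, was higher with NRF2 siRNA. GPX1 (ENSG00000233276.2, chromosome 3, 49394607 to 49396038, minus strand, GRCh37) was at 72.3 and 87.9 FPKM in the A549 controls, 120 FPKM with siRNA 28 and 88.8 FPKM with siRNA 30. Its H2023 levels were 99.3 and 101 FPKM in the controls, 148 FPKM with siRNA 28 and 122 FPKM with siRNA 30. For H460 the levels were 63.2 and 80.2 FPKM in the controls, 241 FPKM with siRNA 28 and 176 FPKM with siRNA 30. The NRF2 siRNA libraries lay above the controls in all 3 lines, barely so for siRNA 30 in A549 and by a wide margin in H460. GPX1 changed on the log2 scale by 1.52 ± 0.26 in H460 (SE, adjusted p = 0.0224), 0.37 ± 0.20 in A549 (adjusted p = 0.499) and 0.42 ± 0.16 in H2023 (adjusted p = 0.291). On average over the lines it was 0.77 ± 0.13 (adjusted p = 0.00187), and this passed under all 19 alternative settings. The difference between the lines did not pass (adjusted p = 0.0873). The H460 call was lost with no filter on low values (adjusted p = 0.152), where 0 of all 30675 genes passed. That call was also lost without either control library, where 1 control stood alone. With 1 H460 library left out, the log2 change of GPX1 lay from 1.29 to 1.74. The genes most like GPX1 over the 12 libraries were GINM1, CASTOR1 and DHRS12, with Pearson r of 0.985, 0.985 and 0.983. The annotation names 2 GPX1 pseudogenes, GPX1P1 and GPX1P2, and a gene on the same strand overlaps GPX1, so its reads may have been shared.

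GPX8, a glutathione peroxidase of the endoplasmic reticulum, did not pass the threshold in any line or on average. GPX8 (ENSG00000164294.9, chromosome 5, 54455995 to 54463125, plus strand, GRCh37) was at 30.5 and 26.7 FPKM in the A549 controls, 38.2 FPKM with siRNA 28 and 33.7 FPKM with siRNA 30. For H2023 the levels were 68.2 and 91.6 FPKM in the controls, 107 FPKM with siRNA 28 and 154 FPKM with siRNA 30. In H460 it was at 79.4 and 62.3 FPKM in the controls, 63.5 FPKM with siRNA 28 and 81.1 FPKM with siRNA 30. The NRF2 siRNA libraries lay above the controls in A549 and H2023 and overlapped with them in H460. Averaged over the lines, GPX8 changed by 0.35 ± 0.13 on the log2 scale (SE, adjusted p = 0.0714), and the adjusted p was under the threshold in 5 of 19 alternative settings, among them rescaling without mitochondrial transcripts (0.45, adjusted p = 0.0409). The average passed without siRNA 28 in H2023 (adjusted p = 0.0324) and without siRNA 28 in H460 (adjusted p = 0.0434). With siRNA 30, the higher library, alone against the H2023 controls and assumed to vary like them, GPX8 had an adjusted p of 0.0213 in that line, and with siRNA 28 alone it was 0.227.

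The glutathione peroxidases together therefore took a different composition after NRF2 siRNA. The 5 genes summed to 1299 and 1086 FPKM in the A549 controls, 379.7 FPKM with siRNA 28 and 499.96 FPKM with siRNA 30. In H2023 they summed to 1220.05 and 941 FPKM in the controls, 528 FPKM with siRNA 28 and 519 FPKM with siRNA 30. In H460 they summed to 295 and 298 FPKM in the controls, and to 500.4 FPKM with siRNA 28 and 493 FPKM with siRNA 30. The sum was thus lower in A549 and H2023 and higher in H460. GPX2 made up 80.8% and 77.3% of the sum in the A549 controls and 21.1% and 50.1% with siRNA 28 and siRNA 30. In H2023 the GPX2 share was 58.3% and 49.8% in the controls and 8.23% and 3.74% with siRNA 28 and siRNA 30, so GPX4 had become the largest part at 43.3% and 43.0%. In H460 GPX1 went from 21.5% and 26.9% of the sum to 48.1% and 35.7%. These sums and shares are descriptions without a test.

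**Figure D3:**
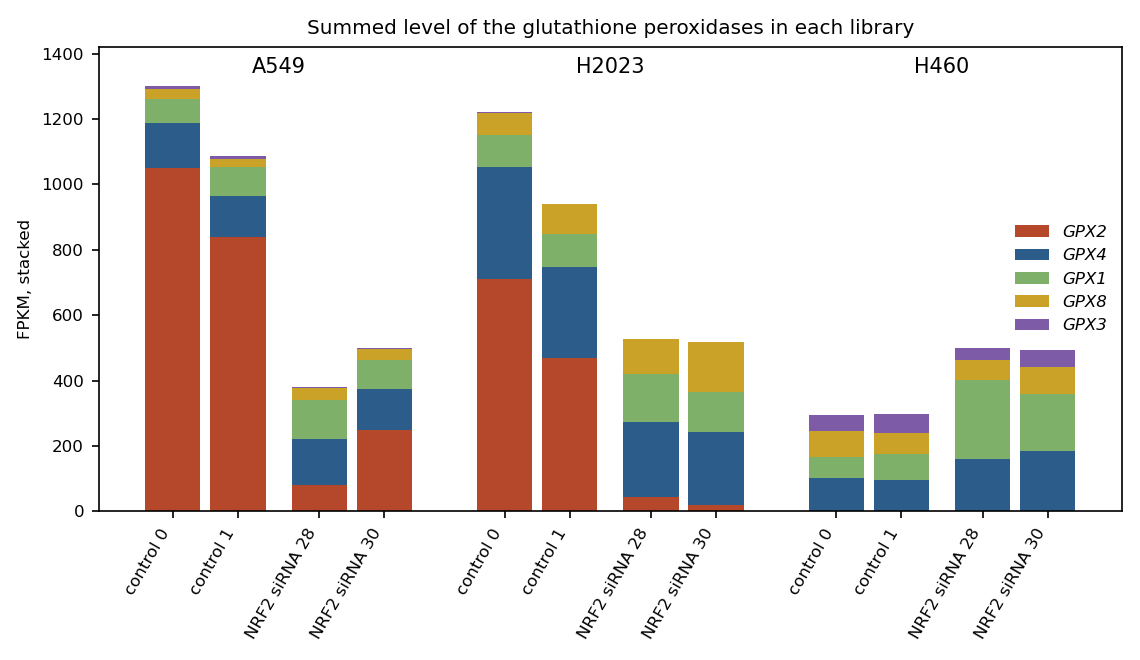
Stacked FPKM of GPX2, GPX4, GPX1, GPX8 and GPX3 (vertical axis, linear from 0) in each of the 12 libraries, by line and siRNA. GPX2 makes up most of the bars of the A549 controls and about none of the H460 bars, and the summed height is lower with NRF2 siRNA in A549 and H2023 and higher in H460.

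SOD1, the copper-zinc superoxide dismutase of the cytosol, fell on average over the lines. SOD1 (ENSG00000142168.10, chromosome 21, 33031979 to 33041244, plus strand, GRCh37) was at 231 and 211 FPKM in the A549 controls, 139 FPKM with siRNA 28 and 106 FPKM with siRNA 30. In H2023 it was at 547 and 488 FPKM in the controls, 244 FPKM with siRNA 28 and 155 FPKM with siRNA 30. Its H460 levels were 450 and 476 FPKM in the controls, 297 FPKM with siRNA 28 and 86.9 FPKM with siRNA 30. All NRF2 siRNA libraries lay below the controls, and siRNA 30 gave the lower value in each line. NFE2L2 itself was at 5.31 and 7.84 FPKM with siRNA 28 and siRNA 30 in A549. In the same order it was at 7.74 and 6.80 FPKM in H2023 and at 6.54 and 12.2 FPKM in H460. The siRNA with the lower SOD1 thus left more NFE2L2 in A549 and H460 and less in H2023. Averaged over the lines, SOD1 changed by -1.26 ± 0.26 on the log2 scale (SE, adjusted p = 0.00540), which passed under all 19 alternative settings. No single line passed in its own fit, the log2 changes being -0.86 ± 0.18, -1.41 ± 0.25 and -1.52 ± 0.54 for A549, H2023 and H460 (SE, adjusted p = 0.157, 0.0933 and 0.105). In the fit of all 12 libraries SOD1 had adjusted p of 0.675, 0.111 and 0.0249 for A549, H2023 and H460. The H460 change depended on which siRNA was kept, being -2.40 without siRNA 28 (adjusted p = 0.00312) and -0.64 without siRNA 30 (adjusted p = 0.0912). Without siRNA 28 the adjusted p was 0.0440 in A549 and 0.00102 in H2023, and without siRNA 30 it was 0.121 and 0.0129. In these fits 1 NRF2 siRNA library is assumed to vary like the controls, and without 1 control library the adjusted p was between 0.306 and 0.521 in every line. SOD1 was at a ratio of 1.31, 1.57 and 3.42 for siRNA 28 over siRNA 30 in A549, H2023 and H460. SLC47A1, ATL2 and NUP54 followed SOD1 most closely over the 12 libraries, with Pearson r of 0.990, 0.981 and 0.981. The annotation names 3 SOD1 pseudogenes, with which reads may have been shared.

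CAT, the catalase of peroxisomes, was measured in A549 and H2023 and listed at or near 0 in H460. CAT (ENSG00000121691.4, chromosome 11, 34460481 to 34493607, plus strand, GRCh37) was at 38.1 and 35.0 FPKM in the A549 controls, 31.6 FPKM with siRNA 28 and 25.8 FPKM with siRNA 30. Its H2023 levels were 19.5 and 17.5 FPKM in the controls, 16.2 FPKM with siRNA 28 and 12.9 FPKM with siRNA 30. In H460 it was listed at 0.00203 and 0 FPKM in the controls, 0.286 FPKM with siRNA 28 and 0.501 FPKM with siRNA 30, and it was not tested. The NRF2 siRNA libraries lay below the controls in A549 and H2023, at 78.6% of the control mean in both. CAT changes of -0.34 ± 0.16 in A549 and -0.33 ± 0.20 in H2023 on the log2 scale did not pass the threshold (adjusted p = 0.423 and 0.461), with 95% confidence intervals from -0.73 to 0.04 and from -0.83 to 0.17.

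The control libraries of H2023 and H460, which share the library protocol, were compared to describe the levels before NRF2 was lowered. GPX2, CAT and GPX3 entered this fit only through the line in which they are high and so had to differ. They are given by level alone, GPX2 and CAT being high in H2023 and under 1 FPKM in the H460 controls, and GPX3 the other way round. Of the other 6 genes tested, 3 differed, against 48.8% of all genes in the fit, a share that includes genes under 1 FPKM in 1 line. In H460 GPX4 was lower by a log2 difference of -1.63 ± 0.15 and GPX1 by -0.49 ± 0.16 (SE, adjusted p = 0.000702 and 0.0440). ACSL4 was higher in H460 by 1.82 ± 0.24 (SE, adjusted p = 0.00238). The GPX1 call was lost with no filter on low values (adjusted p = 0.152), with no variance trend (adjusted p = 0.0729) and without either H2023 control library or H460 control library 0 (adjusted p from 0.139 to 0.175), and its log2 difference was -0.32 without H460 control library 0. The ACSL4 call was lost with no filter on low values (adjusted p = 0.0613) and held in the 10 other alternative settings. GPX8, SOD1 and AIFM2 did not pass, with log2 differences of -0.17, -0.16 and 0.15 and 95% confidence intervals from -0.66 to 0.32, from -0.53 to 0.21 and from -0.20 to 0.51. In order of control FPKM, H2023 ran GPX2, SOD1, GPX4, GPX1, GPX8, AIFM2, ACSL4, CAT and GPX3, and H460 ran SOD1, GPX4, ACSL4, GPX1, GPX8, GPX3, AIFM2, GPX2 and CAT. The control libraries of neighbours in that order overlapped for GPX2 and SOD1, for AIFM2 and ACSL4 and for ACSL4 and CAT in H2023, and for ACSL4, GPX1 and GPX8 in H460.

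The siRNAs were compared over the 6 NRF2 siRNA libraries with the line as a covariate. None of the 9 genes differed between siRNA 28 and siRNA 30 in limma, against 0% of all 15716 genes, of which 2853 had an unadjusted p under 0.05. SOD1 was higher with siRNA 28 by 0.93 ± 0.28 on the log2 scale (adjusted p = 0.197) and GPX1 by 0.38 ± 0.12 (adjusted p = 0.205), and they were the only 2 of the 9 genes with an unadjusted p under 0.05. The 95% confidence interval of the difference was widest for GPX2, from -1.16 to 1.97. This fit also took in H460, where GPX2 was at 2.69 FPKM with siRNA 28 and 0.119 FPKM with siRNA 30. CAT in H460 and GPX3 in H2023 entered it at levels under 1 FPKM.

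Genes on which these enzymes depend were then counted from lists chosen by function. Glutathione, the reductant of the glutathione peroxidases, is made from cystine taken up by SLC7A11 and SLC3A2, by the ligase subunits GCLC and GCLM and by GSS, and is recycled by GSR. Of these 6 genes, 4 were lower in A549, 3 in H2023 and 5 in H460, against 0.554%, 0.583% and 6.86% of all genes, and 0 were higher in any line. Since these shares differ between the lines, the counts are not compared between them. The median log2 fold change was -1.75, -2.13 and -1.97 against 0.02, 0.02 and -0.01 for all genes. GCLM had the largest changes, -2.73 ± 0.17, -3.13 ± 0.18 and -4.01 ± 0.25 for A549, H2023 and H460 (SE, adjusted p = 0.00362, 0.00713 and 0.00448). GCLM, GCLC and GSR thus fell in each of the 3 lines.

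GPX1, GPX2, GPX3 and GPX4 carry selenium as selenocysteine. Of the 8 genes of selenocysteine synthesis and selenium uptake, only LRP8, the receptor for selenoprotein P, passed in any line, which made 1 of 8 genes lower in H2023 and in H460 against 0.583% and 6.86% of all genes. Its log2 change was -2.15 in H2023 (adjusted p = 0.0256), -2.37 in H460 (adjusted p = 0.0101) and -1.15 in A549 (adjusted p = 0.0573). Of the 15 other selenoprotein genes, 3 were lower and 5 higher on average over the lines, against 14.5% and 15.2% of all genes in that fit, with a median of 0.14 against -0.01 for all genes. The lower genes were TXNRD1, which encodes the cytosolic thioredoxin reductase, at -3.04, SELENOI at -1.12 and MSRB1 at -0.59. The higher genes were SELENOP at 1.53, SELENOW at 0.99, SELENOM at 0.83, TXNRD2 at 0.50 and SELENOH at 0.41, all given as average log2 fold changes. SELENOP, the plasma selenium carrier, entered the A549 and H460 fits only through the NRF2 siRNA libraries, its controls lying between 0.268 and 0.575 FPKM in these lines, so there it could only be higher, and its place in the count supports nothing. MSRB1, TXNRD2 and SELENOH passed in no single line and are named because the counts are small, after their values were seen.

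Coenzyme Q, the substrate of AIFM2, is made by enzymes of which 10 were listed. In H460 PDSS1 and COQ8A were lower, by -1.98 and -1.55 (adjusted p = 0.0188 and 0.0240), so 2 of the 10 were lower there against 6.86% of all genes, and 0 of the 10 passed in A549 or H2023. On average 3 of the 10 were lower and 0 higher, against 14.5% and 15.2% of all genes, COQ3 at -0.50 being the third, named after its value was seen. Of the 8 other ferroptosis suppressors, only NQO1 passed in single lines, which made 1 of 8 lower in each line against 0.554%, 0.583% and 6.86% of all genes, and that gene is the NRF2 target given above. On average 3 of the 8 were lower, against 14.5% of all genes, with a median of -0.37. GCH1, which begins tetrahydrobiopterin synthesis, and CISD2 were the other two, at -1.21 and -0.47, named after their values were seen. GCH1 in H460 was at 3.54 and 3.05 FPKM in the controls, 5.74 FPKM with siRNA 28 and 0.829 FPKM with siRNA 30, so the siRNAs lay on opposite sides of the controls there. Of the 7 iron genes with a value, 2 were lower in A549, 1 in H2023 and 3 in H460, against 0.554%, 0.583% and 6.86% of all genes, all of them among the ferritin chains FTH1 and FTL and the heme oxygenase HMOX1. The divalent metal transporter SLC11A2 was higher on average at 0.44, named after its value was seen. The average log2 fold changes of FTH1, FTL and HMOX1 were -1.97, -3.61 and -2.07 (adjusted p = 0.000222, 0.000382 and 2.82e-05).

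Among the peroxiredoxins, which share hydrogen peroxide with the glutathione peroxidases, PRDX1 was lower in H460 at -1.61 (adjusted p = 0.0215) and PRDX5 was higher at 0.99 (adjusted p = 0.0400), 1 of 6 in each direction against 6.86% lower and 7.12% higher of all genes. On average 2 of the 5 tested were lower and 1 higher, against 14.5% and 15.2% of all genes. PRDX2 was listed at or near 0 in the A549 files and was not tested there. Of the 17 genes of lipid peroxidation substrates and enzymes, 12, 11 and 13 were tested in A549, H2023 and H460 and none of them passed in a line, while ALOX5, ALOX12 and ALOX15B were under 1 FPKM in every library, and on average POR was lower at -0.51 and CYB5R1 and AGPS were higher at 0.54 and 0.33, 1 and 2 of the 11 tested against the same shares. None of the 9 partners of superoxide dismutases and catalase passed in a single line, and the copper chaperone CCS and PEX2 were higher on average, at 0.32 each, against 15.2% of all genes, PEX2 being at -0.06 in H2023. These 5 genes are named after their values were seen. Of the 10 remaining family members, GPX5, GPX6, GPX7, SOD3 and ACSL6 were under 1 FPKM in every library, and none of the tested ones, which include ACSL1, ACSL3 and AIFM1, passed in any line or on average.

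**Figure D4:**
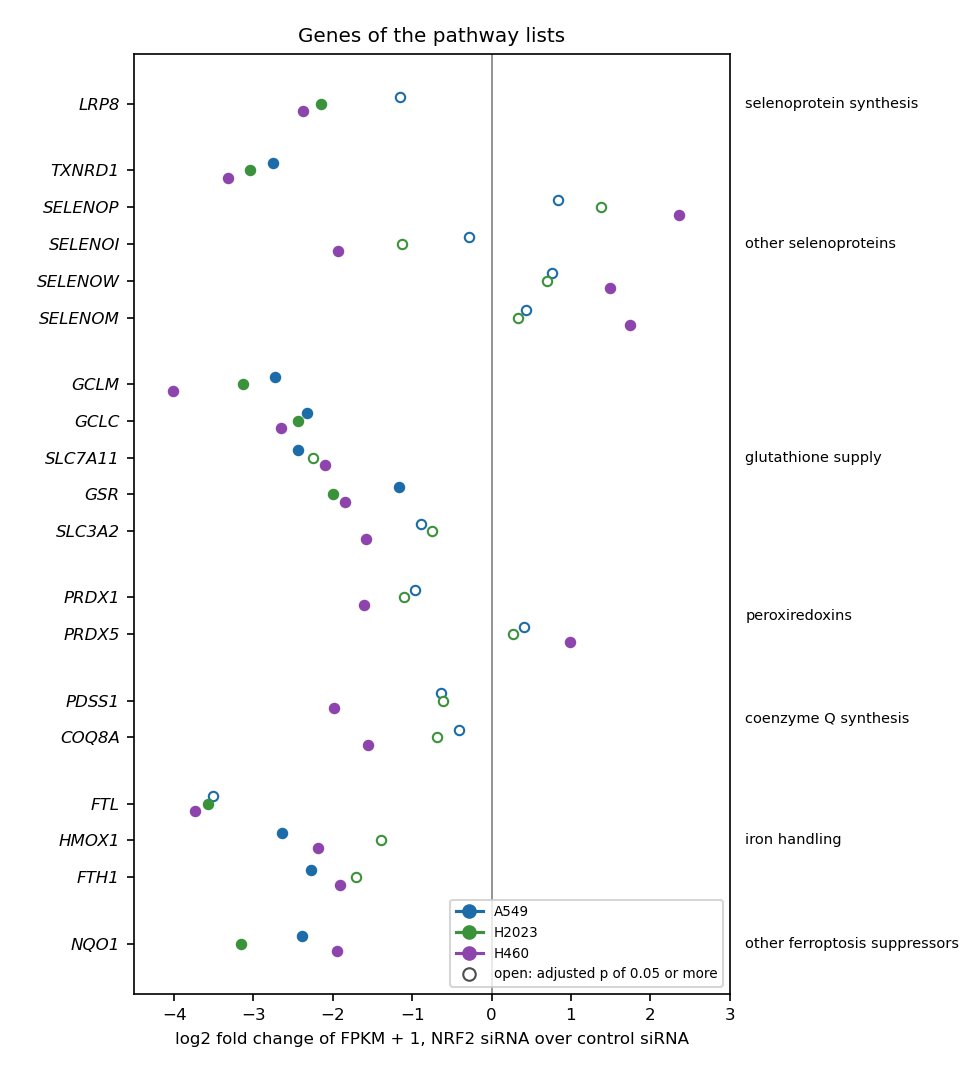
Log2 fold change of FPKM + 1 with NRF2 siRNA (horizontal axis) in A549, H2023 and H460 for the genes of the pathway lists that had an adjusted p under 0.05 in at least 1 line, grouped by list. Filled circles passed in that line; the glutathione supply and iron genes lie to the left in all 3 lines, and SELENOW, SELENOM and PRDX5 lie to the right, as does SELENOP, which entered the A549 and H460 fits only through the NRF2 siRNA libraries.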

How the data were processed

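Alignment was done with TopHat to hg19 and abundance was estimated with Cufflinks according to the study's methods, whereas the submitters' processing notes name STAR 2.5.3a and Cuffnorm, so the steps behind the FPKM values are not settled. FPKM values were deposited by the authors as 1 file for each library, beside tables of their own DESeq2 comparisons (fold changes and p-values), which were not used. Identifiers were matched without version to a GENCODE annotation lifted to GRCh37 (96.1% matched). Genes with at least 1 FPKM in at least 2 libraries of a line were tested on log2(FPKM + 1), which understates changes of low genes, with limma 3.58.1 in R 4.3.3, the prior variance following mean expression. Scripts were tested on simulated data. Fits across lines needed this in every line and used 6 group means. The genes and lists were chosen with earlier results of these data known. All 9 matched genes were named; of the lists, genes past 0.05 in a line, at most 6 per list by mean change. Control libraries are biological duplicates per the study's methods. Relative depth was read from the most frequent ratio of low FPKM values between libraries of a line; counts were not used, so no counting intervals are given. The library kit keeps the strand, but whether counting used it is not given in the sources used here, and genes on the other strand overlap AIFM2, ACSL4, GPX2, GPX8 and SOD1. On the same strand KCNE5 overlaps ACSL4 and SNORA81 overlaps SOD1, besides the gene that overlaps GPX1.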

Additional observations from a re-analysis of the deposited data

Results flagged for a closer look

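The effect of NRF2 siRNA on GPX4 differed between the lines by the F test of the difference (adjusted p = 0.0440 in limma), its log2 changes being 0.0055, -0.45 and 0.78 for A549, H2023 and H460, of which none passed in its own line. That call held under 7 of 19 alternative settings, with adjusted p from 0.0257 to 0.145, and was lost with no variance trend (0.0594) and with a replicate block (0.0655).

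ACSL4 was noted because both NRF2 siRNA libraries lay above both controls in A549 and H2023 and below both controls in H460. The test of that difference did not pass (adjusted p = 0.226).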

How the results depend on the processing

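The counts of genes past the threshold were small and moved with the settings, while the average changes of AIFM2, SOD1 and GPX1 passed under all 19 alternatives. With no filter on low values, 0 genes passed as lower in A549, H2023 or H460 and 0 as higher in H460, in place of 1 each, and 4 in place of 2 were lower on average. In that setting more low genes enter the test, and 0 of all 35808, 32031 and 30675 genes passed in A549, H2023 and H460. The calls lost there therefore say nothing of these genes in particular. On average over the lines 1460 of all 38752 genes were lower in that setting. In 1 fit of all 12 libraries, 2 genes were lower in each line, and 2 were higher in H460. The calls over all genes in that fit were 140 of 13898 in A549, 748 of 14059 in H2023 and 4585 of 13446 in H460. They stood in place of 94, 128 and 1879. Rescaling without mitochondrial transcripts or by median of ratios gave 2 higher in H460 and 2 higher on average in place of 1. Of all genes 1426 and 1076 were then higher in H460 in place of 957, and 2385 and 2014 on average in place of 1763. With no variance trend, 0 genes differed between the lines in place of 1, and 207 in place of 290 did among all genes. Requiring 1 FPKM in all libraries left 3 genes different between H2023 and H460 controls in place of 6, because GPX2, GPX3 and CAT were then not tested.

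The sources used here name no batch or day that same-numbered libraries share. Their deviations correlated at -0.032, 0.312 and 0.163 for A549, H2023 and H460, so not in every line, and the numbers were not taken as pairs. With the replicate number as a block, 0 genes were lower in A549 (GPX3 adjusted p = 0.0818), 3 in H2023, where SOD1 and AIFM2 joined GPX2 (adjusted p = 0.0103 and 0.0215), and 2 in H460, where SOD1 joined AIFM2 (adjusted p = 0.0130). In that fit 2 were higher in H460 and on average, GPX4 joining GPX1 in H460 (adjusted p = 0.0473) and GPX8 joining it on average (adjusted p = 0.0466), and 0 differed between the lines. The calls over all genes went from 128 to 711 in H2023, from 1879 to 3177 in H460 and from 290 to 76 for the difference between the lines.

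A fit with 1 library left out has a group of 1 library, so counts of genes past the threshold are not given for it. In such fits the average log2 change lay from -1.37 to -1.27 for AIFM2 and from -1.55 to -0.97 for SOD1. It lay from 0.69 to 0.84 for GPX1 and from 0.07 to 0.16 for GPX4. The range was from 0.26 to 0.43 for GPX8 and from 0.15 to 0.33 for ACSL4.

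Changes near 0 turned direction. The GPX4 log2 fold change in A549 became -0.016 by median of ratios and -0.078 to 0.089 with 1 library left out. Those of GPX8 became -0.144 to 0.203 in H460 and, for H460 over H2023 controls, -0.377 to 0.044. For siRNA 28 over siRNA 30, GPX3 became 0.091 and CAT -0.010 with a pseudocount of 0.1, and AIFM2 -0.048 without mitochondrial transcripts and -0.014 by median of ratios. With 1 library left out this difference was -0.071 to 0.166 for AIFM2, -0.229 to 0.113 for ACSL4, -0.254 to 1.42 for GPX2, -0.395 to 0.089 for GPX3 and -0.094 to 0.101 for GPX4. Of the 387 values of single genes under the alternatives that keep all libraries, 359 stayed on their side of the threshold, 13 gained and 10 lost a call and 5 turned direction. Over all genes, 0 passed in H2023 or in H460 without control library 0, where 1 control stands against 2 NRF2 siRNA libraries and is assumed to vary like them.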
